A study of Mus musculus with 8 samples.

Results

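Fibroblast identity and subtype genes are 33 genes, among 57132 in the deposited count matrix, that mark fibroblasts or one of their states. They were chosen by symbol, taking the identifier with the most reads where a symbol had several, and fall into 4 groups by role: 9 identity genes, 12 universal genes, 6 inflammatory genes and 6 matrix-making genes. Reads were found for 32 of the 33. The exception was Tcf21, a transcription factor of visceral fibroblasts, which had 0 reads in all 8 libraries; a count of 0 allows a level of up to 0.0665 to 0.0872 CPM depending on the library, for counting error only. CPM are read counts relative to the library's total, the scale of all levels here.

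The study sequenced total RNA, depleted of ribosomal RNA, from tumours grown under the skin of mice from KPC cells, a mouse model of pancreatic cancer. The 4 control libraries are labelled PBS (phosphate-buffered saline, a salt solution without drug) and the 4 treated libraries carry the label Ce6@D4-EV–mediated targeted photodynamic therapy, called PDT here. In photodynamic therapy a photosensitiser is activated by light, and the series' design says that the treated tumours received Ce6@D4-EV together with irradiation; Ce6 is a usual abbreviation of the photosensitiser chlorin e6. The tissue is labelled as sorted from the tumour, with no gate or marker given. No source used here gives the mouse strain, age, sex, light dose or time from treatment to harvest, nor whether the PBS tumours were irradiated, so the vehicle, the carrier, the drug and the light cannot be told apart. The labels do not say that the 4 libraries of a group came from separate mice, so p-values measure only the spread between these libraries, which may be technical.

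Fibroblasts are the connective tissue cells that secrete collagen and proteoglycans, and in a tumour they are called cancer-associated fibroblasts. Universal fibroblasts, marked by Pi16, Dpt or Col15a1, occur in most tissues and are regarded as a reservoir from which activated states arise. In pancreatic tumours the activated states are usually divided into inflammatory fibroblasts, which secrete cytokines and acute-phase proteins, and matrix-making or myofibroblastic fibroblasts, which express Fap, Postn, Cthrc1 or Lrrc15 and deposit the collagen-rich stroma for which this cancer is known. In bulk tissue, fewer cells of a type and less RNA per cell cannot be told apart.

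Promoter sequence was matched for 21 of the 33 genes in the RefSeq table of build GRCm38.p6. The 3 windows below hold the 250 bases upstream of the transcript start, 5′ to 3′ on the gene's strand, of the member with the largest fold change (Saa3, at chr7:46715677-46715926, minus strand), the member with the smallest p-value (Pdpn, at chr4:143299565-143299814, minus strand) and the standard marker of the universal state (Pi16, at chr17:29318632-29318881, plus strand). Capitals mark letters matching a C/EBP motif.
Saa3: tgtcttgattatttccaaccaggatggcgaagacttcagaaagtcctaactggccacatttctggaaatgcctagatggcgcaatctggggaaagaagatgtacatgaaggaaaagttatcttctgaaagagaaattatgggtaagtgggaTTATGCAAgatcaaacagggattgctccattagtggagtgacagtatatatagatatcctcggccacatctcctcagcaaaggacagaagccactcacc
Pdpn: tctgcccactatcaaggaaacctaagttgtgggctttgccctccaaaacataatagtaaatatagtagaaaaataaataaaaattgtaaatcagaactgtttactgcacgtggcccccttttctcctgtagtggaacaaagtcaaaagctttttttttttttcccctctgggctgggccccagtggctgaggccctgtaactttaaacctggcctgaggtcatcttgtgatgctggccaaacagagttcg
Pi16: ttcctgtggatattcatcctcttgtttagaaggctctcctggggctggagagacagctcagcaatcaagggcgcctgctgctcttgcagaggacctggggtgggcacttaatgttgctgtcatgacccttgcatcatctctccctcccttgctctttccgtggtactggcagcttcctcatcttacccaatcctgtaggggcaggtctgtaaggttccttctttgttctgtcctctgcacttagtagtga
The Saa3 window held a match to the C/EBP motif TTGCNNAA on the reverse strand, 99 bases upstream of the start; C/EBP factors are regulators of acute-phase genes such as serum amyloids. Both strands were searched for this motif, for the TATA box TATAAA, for AP-1 as TGANTCA, for STAT as TTCNNNGAA, and for NF-kB and the CArG box by name, and these motifs can overlap. The Pdpn and Pi16 windows held none of them. A C/EBP match was found in windows of 5 of the 21 genes (Dpt, Fmod, Pdgfra, Postn and Saa3) and in 9.57% of all 32536 promoters in the table. The TATA box was found for 4 of the 21 genes against 12.3% of all promoters, STAT for 2 against 7.04%, NF-kB for 2 against 5.03%, AP-1 for 1 against 6.73%, and the CArG box for 0 against 1.48%. Some genes have several windows in the table, and a match to letters is a description, not a binding site.

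The libraries held 35742024 to 48804713 reads, with PDT deeper on average. The 33 genes together took between 0.283% of the reads (PBS 3) and 0.489% (PBS 1). On the first principal component of all genes, which held 25% of the variance, PBS 1 stood at -111.5 and the other libraries between -8.53 and 37.16. PBS 1 also had the highest level of 9 of the 32 detected members, while PBS 3 had the lowest level of 14 and the highest of 0. Epithelial markers were highest in PBS 3: the 8 tumour epithelial genes summed to 7160 CPM there, against 3482 to 3931 in the other PBS libraries. There 7 skin keratinocyte markers summed to 100.67 CPM, against 15.1 to 27.6 in the other PBS libraries. Lor, also on the keratinocyte list, was not found by symbol. The 10 macrophage markers were lowest in PBS 3 too, at 895 CPM against 1404 to 1800 in the other PBS libraries. PDT 4, the lowest library for 7 members, had the highest epithelial sum among the treated tumours, 6121 CPM against 3046 to 4650. The part of these differences in the fibroblast values was not tested.

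**Figure D1:**
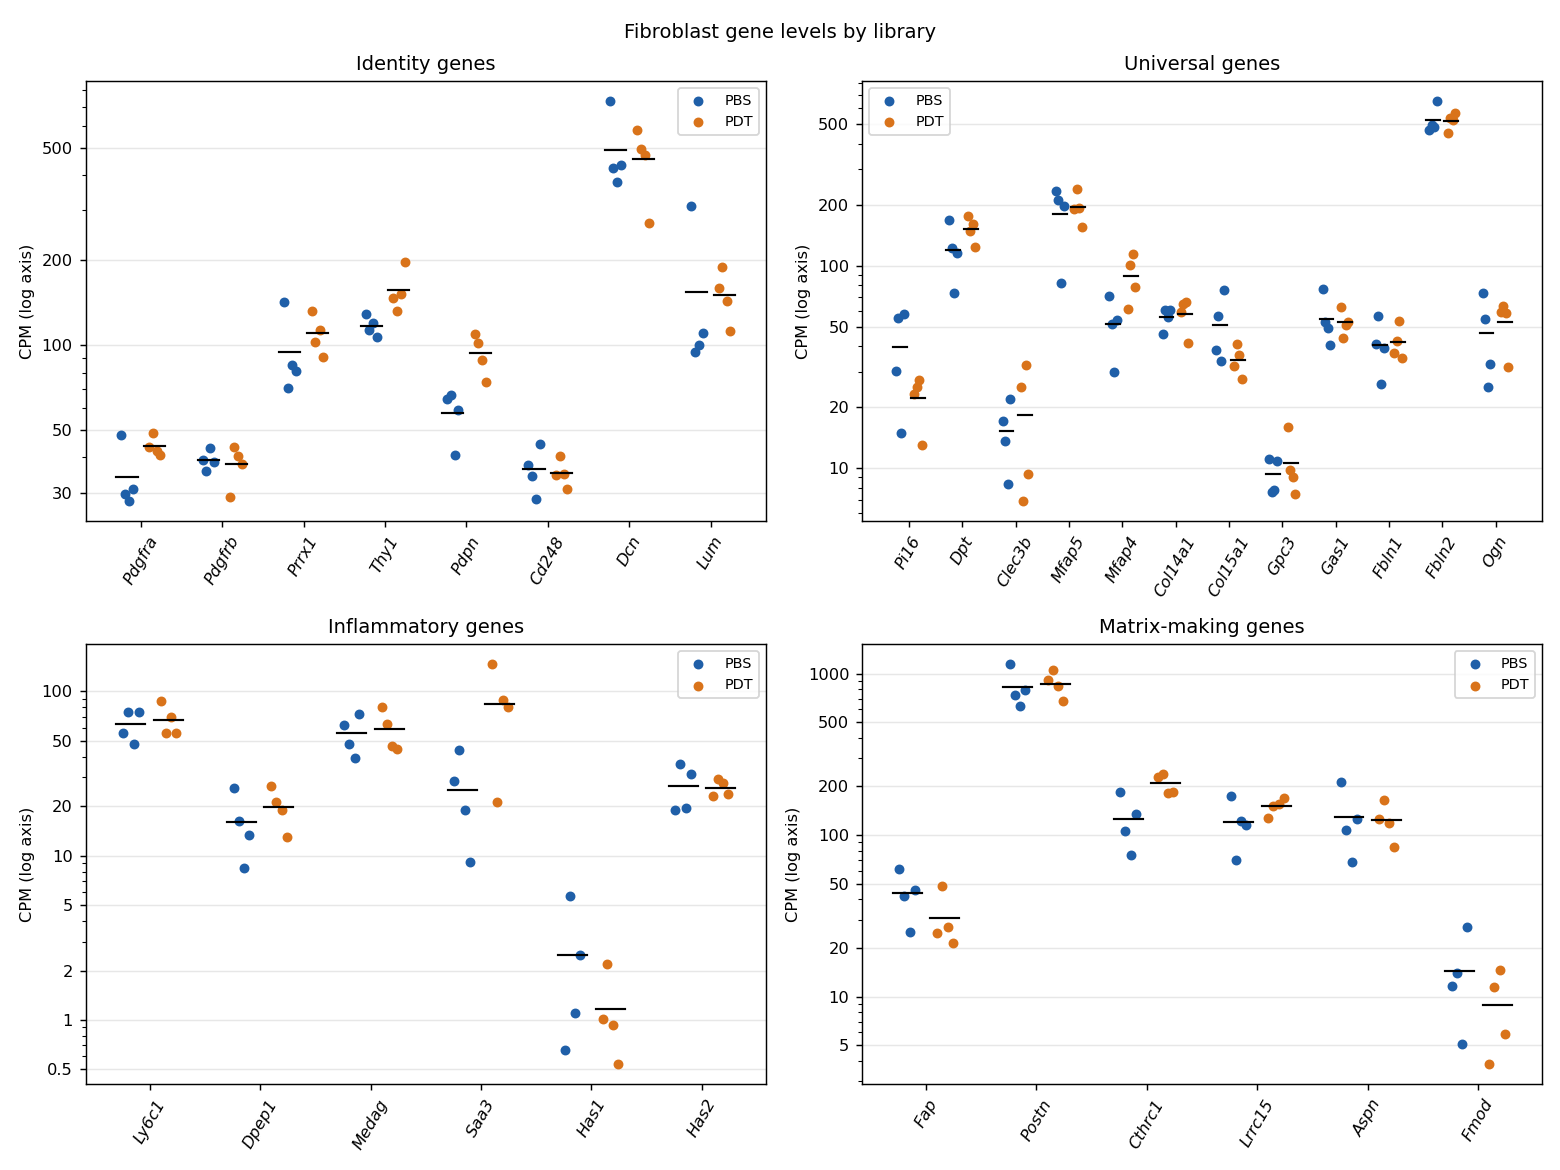
Level of each of the 32 detected fibroblast genes in every library, in CPM on a log axis, for PBS (blue) and PDT (orange); each point is 1 library (left to right replicates 1 to 4) and the black line is the group mean. The groups are separate for Pdpn and Thy1, while 3 of 4 PDT libraries stand above all PBS libraries for Saa3 and Mfap4.

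The central comparison asked whether fibroblast genes differed between the PDT and the PBS tumours. By edgeR's quasi-likelihood test, with Benjamini-Hochberg adjustment over the 16588 genes tested and a threshold of 0.05, 0 members passed. That test called 39 genes in all (0.235%), 27 higher and 12 lower in PDT. The smallest adjusted p among the members was 0.0978, for Pdpn. At an unadjusted p under 0.05, 5 members were higher in PDT (Pdpn, Thy1, Mfap4, Saa3 and Cthrc1) and 2 were lower (Pi16 and Col15a1), where 8.63% of all genes were higher and 7.87% lower by the same rule. The share of members lower in PDT was near this background and the share higher was above it, a difference given as a description only. Of the 32 members, 19 had the higher mean in PDT, with a median log2 fold change of 0.07, against 49.8% of all genes and a median of -0.002.

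The outcome of the call depended on the method. DESeq2 called 3 members, Pdpn (adjusted p = 0.00988), Cthrc1 (0.0303) and Mfap4 (0.0348), while it called 5.24% of all genes; edgeR without a count filter called these and Saa3, and 1.95% of the 27316 genes it tested. The limma-voom fit called 0 members and 1.01% of all genes. Only 2 members, Pdpn and Thy1, had all PDT libraries above all PBS libraries, where 5% of all genes did, and 0 members lay wholly lower, where 5.12% of genes did. Without PBS 3, 14 of the 32 members had the higher mean in PDT and their median log2 fold change was -0.03; without PBS 1, 22 did and the median was 0.27; without PDT 4, 24 did and the median was 0.19.

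**Figure D2:**
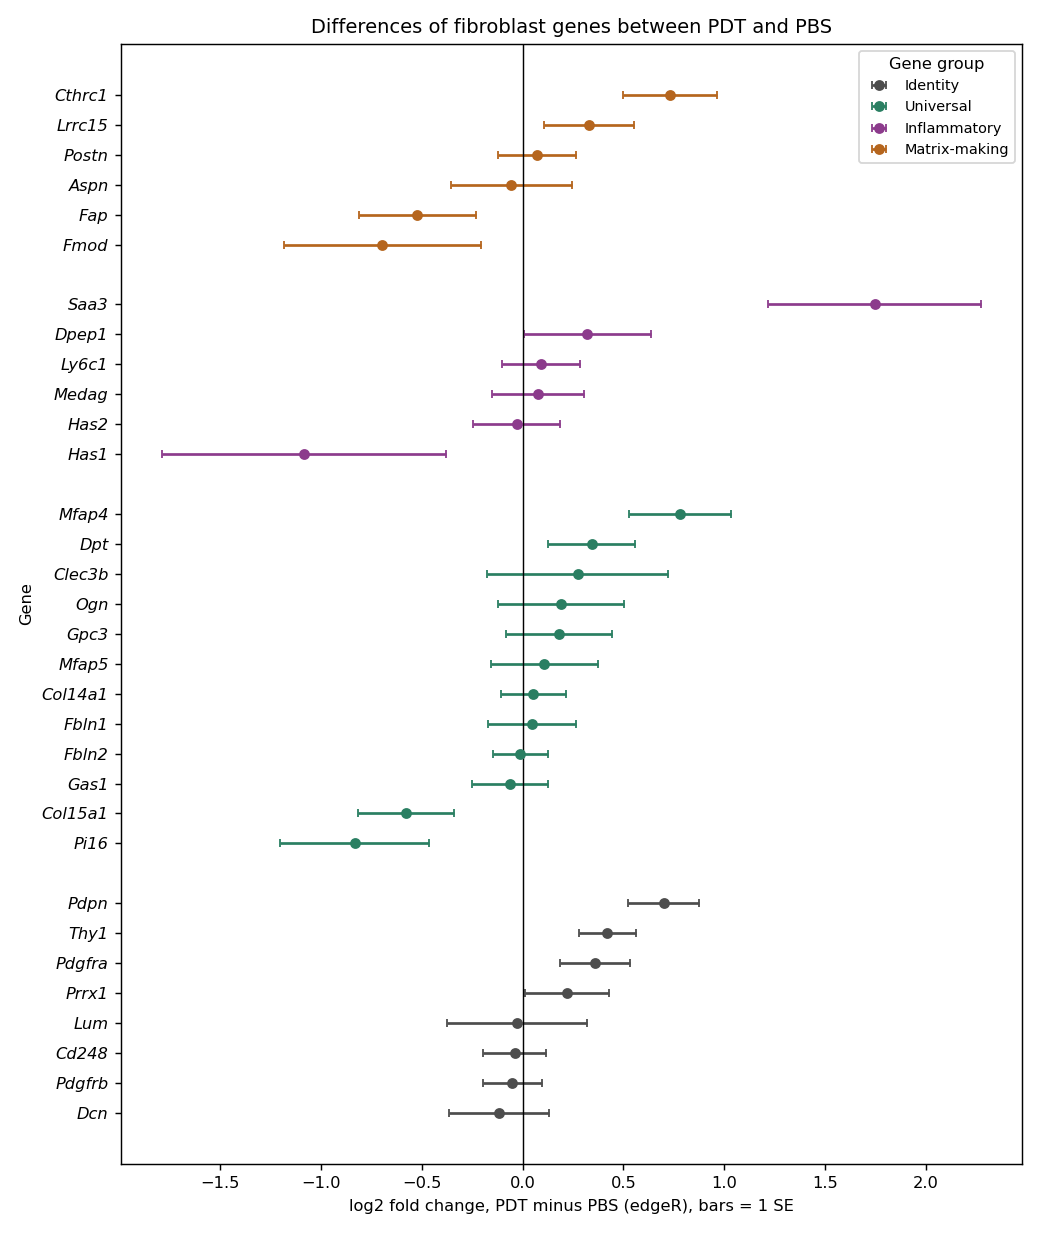
Log2 fold change of each detected fibroblast gene, PDT minus PBS, with bars of 1 standard error from edgeR (4 libraries a group), ordered by size within each gene group. Saa3 has the largest positive value (1.75) and Has1 the largest negative one (-1.08), and each gene group holds both higher and lower members.

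Among the identity genes, which are shared by most fibroblasts, Pdpn and Thy1 had higher levels in every treated library than in any PBS library, and the other 6 detected genes overlapped between the groups. Pdpn encodes podoplanin, a mucin-like surface protein of activated fibroblasts that is also made by lymphatic endothelium and some macrophages. It stood at 64.3, 66.5, 40.9 and 58.8 CPM in PBS 1 to 4 and at 110.0, 102.06, 88.3 and 74.2 CPM in PDT 1 to 4. The groups did not overlap, and the lowest PDT library was PDT 4. The log2 fold change was 0.70 ± 0.18 (SE, n = 4 a group), a 1.62-fold difference in means, with an adjusted p of 0.0978 in edgeR and a range of 0.00988 to 0.245 over 18 alternative settings. Of 5 lymphatic markers 1 had the higher mean in PDT, with sums of 47.6 to 108 CPM in PBS and 27.5 to 73.3 CPM in PDT. Each of the 10 macrophage markers had the higher mean in PDT, with sums of 895 to 1800 CPM in PBS and 1853 to 2332 CPM in PDT. The part of lymphatic endothelium and of macrophages in the Pdpn difference was not tested.

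Thy1, the glycoprotein CD90 found on fibroblasts, T cells and some endothelium, read 129, 113, 119.8 and 106 CPM in PBS 1 to 4 and 147, 132, 152 and 197 CPM in PDT 1 to 4. All PDT libraries were above all PBS libraries, with PDT 4 highest. The log2 fold change was 0.42 ± 0.14, with an adjusted p of 0.167 in edgeR. The 7 T cell genes (Cd3d, Cd3e, Cd3g, Cd4, Cd8a, Cd5 and Lck) also had higher means in PDT: they summed to 9.12 to 14.7 CPM in PBS and to 16.6 to 21.1 CPM in PDT, Cd8a and Cd5 were at 0 in PBS 3 and Cd3e at 0 in PBS 1. Their part in the Thy1 difference was not tested.

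Pdgfra, the receptor for platelet-derived growth factor that defines fibroblasts, was at 48.0, 29.8, 28.0 and 30.9 CPM in PBS 1 to 4 and at 43.6, 48.7, 42.2 and 40.7 CPM in PDT 1 to 4. The 4 PDT libraries exceeded PBS 2, 3 and 4 but only PDT 2 exceeded PBS 1. Its log2 fold change was 0.36 ± 0.17 (adjusted p = 0.334), and 0.57 without PBS 1. Pdgfrb, the receptor shared by fibroblasts and pericytes (the cells that wrap small vessels), was at 39.1, 35.9, 43.1 and 38.5 CPM in PBS and 29.0, 43.4, 40.6 and 38.1 CPM in PDT, so that the lowest and the highest values were both treated libraries. The log2 fold change of Pdgfrb was -0.05 ± 0.14. Of 8 pericyte markers, 6 were higher in PDT, with sums of 94.6 to 113 CPM in PBS and 117 to 176 CPM in PDT. Without Ndufa4l2 the sums were 75.6 to 89.7 CPM in PBS and 83.8 to 104 CPM in PDT and overlapped.

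Dcn and Lum encode decorin and lumican, small proteoglycans that bind collagen fibrils. Dcn was at 733, 424, 379 and 436 CPM in PBS and at 579, 497, 472 and 271 CPM in PDT. Lum was at 311, 94.4, 100.54 and 110.0 CPM in PBS and at 159, 189, 143 and 112 CPM in PDT. PBS 1 was the highest library for both genes, and the sign of each difference depended on it: the log2 fold change was -0.12 ± 0.25 for Dcn and -0.03 ± 0.35 for Lum with all libraries, and 0.14 and 0.57 without PBS 1. The other identity genes were Prrx1, a transcription factor of mesenchymal cells, at 70.6 to 142 CPM in PBS and 91.1 to 133 CPM in PDT, and Cd248, the surface protein endosialin, at 28.6 to 44.7 CPM in PBS and 30.8 to 40.5 CPM in PDT. Both overlapped between the groups, with adjusted p-values of 0.668 and 0.939.

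The universal genes did not move together: 8 of 12 had the higher mean in PDT and 4 the lower, with a median log2 fold change of 0.08. Pi16, a secreted peptidase inhibitor, and Col15a1, a basement membrane-associated collagen, mark the main universal populations and both had lower means in PDT. Pi16 read 30.04, 55.3, 14.96 and 57.7 CPM in PBS 1 to 4 and 23.3, 25.2, 27.3 and 12.95 CPM in PDT 1 to 4. PBS 1, 2 and 4 were above all treated libraries, but PBS 3 was below 3 of the 4. The log2 fold change of Pi16 was -0.83 ± 0.37, with an adjusted p of 0.288 in edgeR. Leaving out PBS 3 gave -1.10 and leaving out PBS 4 gave -0.58.

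Col15a1 was at 38.1, 56.6, 33.9 and 76.0 CPM in PBS and at 32.1, 41.3, 36.1 and 27.6 CPM in PDT. PBS 2 and 4 were above all treated libraries, and PBS 1 and 3 lay among the treated ones. Its log2 fold change was -0.58 ± 0.24 (adjusted p = 0.253). Blood endothelium also makes this collagen; 5 of 8 endothelial markers were higher in PDT, with sums of 379 to 900 CPM in PBS and 480 to 609 CPM in PDT, most of which was Ly6a. Without Ly6a, which other cells also express, the sums were 76.5 to 93.1 CPM in PBS and 79.5 to 114 CPM in PDT. The highest PBS library was PBS 4, where Col15a1 was highest too. The highest sums of all libraries were those of PDT 3 (114 CPM) and PDT 4 (112.9 CPM), where Col15a1 was at 36.1 and 27.6 CPM. The part of endothelium in the Col15a1 values was not tested. If strand was not used in counting, reads of antisense genes cannot be told apart from those of Col15a1 (Gm12426), Pi16 (AC162182.1), Pdgfra, Gas1, Has2 and Aspn, whose exons overlap such genes in GENCODE M21.

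Mfap4, a microfibril-associated glycoprotein of elastic fibres, had the opposite direction. It was at 71.2, 51.4, 30.02 and 54.3 CPM in PBS and at 61.3, 101.42, 114 and 78.8 CPM in PDT. PDT 2, 3 and 4 were above all PBS libraries and PDT 1 was below PBS 1. The log2 fold change was 0.78 ± 0.25, a 1.72-fold difference in means (adjusted p = 0.157 in edgeR and 0.0348 in DESeq2, and 0.0287 to 0.349 over 18 alternatives). Mfap4 overlaps Mapk7 on the other strand, so the same limit applies to it.

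The remaining universal genes overlapped between the groups, with adjusted p-values from 0.473 to 0.98. Dpt, dermatopontin, which marks universal fibroblasts across tissues, had 73.6 to 169 CPM in PBS and 124 to 177 CPM in PDT, with PBS 3 lowest. Fbln2, a fibulin of the extracellular matrix, had means of 525 ± 85 (SD) in PBS and 521 ± 49 in PDT. Clec3b, which encodes tetranectin, spread most, 4.69-fold within PDT: it was at 6.88 and 9.31 CPM in PDT 2 and 4 and at 25.1 and 32.3 CPM in PDT 1 and 3. PDT 3 had the highest sum of 8 adipocyte markers, 487 CPM, against 68.7 to 80.6 CPM in the other treated libraries; the part of fat tissue in the Clec3b value was not tested. Mfap5, Col14a1, Gpc3, Gas1, Fbln1 and Ogn had log2 fold changes between -0.06 and 0.19.

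The inflammatory genes contained the largest fold change among the members, that of Saa3. Saa3 encodes a serum amyloid A protein that is made locally by inflamed fibroblasts, macrophages and fat cells. It was at 28.4, 44.1, 18.9 and 9.19 CPM in PBS 1 to 4 and at 146.71, 21.2, 89.1 and 80.6 CPM in PDT 1 to 4. The levels in PDT 1, 3 and 4 were above every PBS library, and PDT 2 lay below PBS 1 and PBS 2. The means differed 3.36-fold, with a log2 fold change of 1.75 ± 0.53 and an adjusted p of 0.138 in edgeR (0.00437 to 0.326 over 18 alternatives). Leaving out PDT 1 gave 1.35 and leaving out PBS 2 gave 2.17. The macrophage sum was 2332 CPM in PDT 2, where Saa3 was lowest among the treated libraries, and 2270 CPM in PDT 1, where it was highest. The part of macrophages and fat cells in the Saa3 values was not tested. Reads of the related Saa1 and Saa2 could be split with Saa3, depending on the counting.

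The other inflammatory genes did not follow Saa3. Has1, a hyaluronan synthase, was the least abundant detected member, at 22 to 238 reads a library: 0.653, 5.67, 1.10 and 2.50 CPM in PBS and 1.02, 2.19, 0.937 and 0.538 CPM in PDT. PBS 2 was the highest library, and the log2 fold change of -1.08 ± 0.70 (adjusted p = 0.493) became -0.27 without PBS 2. Has2, the other hyaluronan synthase, had means of 26.5 ± 8.6 (SD) in PBS and 26.0 ± 3.1 CPM in PDT. Dpep1, a membrane dipeptidase found in inflammatory fibroblasts, was at 25.9, 16.2, 8.41 and 13.3 CPM in PBS and at 26.5, 21.2, 19.04 and 12.95 CPM in PDT. Its groups overlapped over most of their range, with a log2 fold change of 0.32 ± 0.31 (adjusted p = 0.677). Ly6c1, a surface antigen of inflammatory fibroblasts that endothelium and monocytes also carry, and Medag, a gene linked to fat cell differentiation, had log2 fold changes of 0.09 ± 0.19 and 0.08 ± 0.23. Ly6c1 has a near-identical neighbour, Ly6c2, so its count is uncertain. Medag overlaps Gm20488 on the same strand, where strand cannot separate their reads, and Pdgfra overlaps Mir7025 in the same way.

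Within the matrix-making genes Cthrc1 and Fap went in opposite directions. Cthrc1 encodes a secreted collagen triple helix repeat protein that marks strongly collagen-producing fibroblasts. It was at 186, 106, 75.7 and 135 CPM in PBS 1 to 4 and at 229, 238, 183 and 184 CPM in PDT 1 to 4. Only PBS 1 reached the range of the treated libraries. The log2 fold change was 0.73 ± 0.23, a 1.66-fold difference in means (adjusted p = 0.15 in edgeR and 0.0303 in DESeq2, and 0.0294 to 0.314 over 18 alternatives).

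Fap, the membrane protease fibroblast activation protein, was at 62.04, 42.03, 25.1 and 45.9 CPM in PBS and at 24.8, 48.5, 27.1 and 21.6 CPM in PDT. PDT 2 stood with the PBS libraries and PBS 3 with the treated ones. Its log2 fold change was -0.52 ± 0.29 (adjusted p = 0.413). Postn, the matricellular protein periostin, had 1143, 736, 627 and 786 CPM in PBS and 909.8, 1049, 834 and 672 CPM in PDT. These ranges overlapped almost wholly, and the log2 fold change was 0.07 ± 0.19.

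Lrrc15, a leucine-rich repeat membrane protein of TGF-beta-driven fibroblasts, was at 173, 69.8, 122 and 115 CPM in PBS and at 128, 151, 155 and 171 CPM in PDT. The treated libraries exceeded PBS 2, 3 and 4 but not PBS 1, and the log2 fold change was 0.33 ± 0.22 (adjusted p = 0.513). Aspn and Fmod, the small leucine-rich proteoglycans asporin and fibromodulin that are also abundant in tendon, had log2 fold changes of -0.06 ± 0.30 and -0.70 ± 0.49. Of 4 tendon cell markers 2 were higher in PDT, with sums of 31.8 to 85.9 CPM in PBS and 41.5 to 80.5 CPM in PDT.

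Compared per kilobase of exon, with lengths from GENCODE M21, the most abundant members in PBS were Postn (94.6 ± 25.7 CPM per kb, SD), Dcn (84.4 ± 27.7), Fbln2 (82.4 ± 13.3) and Cthrc1 (78.8 ± 29.3). These means lay within the spread between libraries, although Postn was above Dcn in each of the 4 PBS libraries. In PDT Cthrc1 ranked first at 130.9 ± 18.4 CPM per kb, above Postn at 99.5 ± 18.1 and Dpt at 88.4 ± 12.9. Cthrc1 was below Postn per kilobase in all 4 PBS libraries and above it in all 4 PDT libraries. The lengths join the exons of all annotated transcripts of a gene, 8702 bases for Postn and 1593 for Cthrc1. Ranks between genes depend on that definition. In CPM without regard to length Postn was above Cthrc1 in every library, with means of 866 and 209 in PDT. Least abundant of those detected was Has1, at 0.55 ± 0.50 CPM per kb in PBS and 0.26 ± 0.16 in PDT.

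The ratio of 2 genes within a library does not depend on library scaling or on how much of the sample was fibroblast, as long as fibroblasts made both, so every pair of members was examined. The pairs were described after the values were seen. Of 496 pairs of detected members, 34 had log2 ratios that did not overlap between PBS and PDT (6.85%), against 8.63% of all pairs of the genes tested, a share near the background. Cthrc1 was in 10 of the 34 and Pdpn in 9, followed by Mfap4 and Fap with 6 each. Separate pairs numbered 4 of 28 within the identity group, 3 of 66 within the universal group, 0 of 15 within the inflammatory group and 3 of 15 within the matrix-making group, the last all with Cthrc1; these shares were not compared by a test.

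The ratios given next were picked from the separate pairs after the values were seen. Such pairs were no more frequent among the members than among all genes. The Cthrc1 to Fap log2 ratio was nearly constant in PBS, at 1.58, 1.34, 1.59 and 1.55 in PBS 1 to 4. Cthrc1 varied 2.45-fold and Fap 2.47-fold among these libraries. In PDT the ratio was 3.21, 2.29, 2.75 and 3.09. The group means were 1.51 ± 0.12 and 2.84 ± 0.41 (SD, n = 4). Mfap4 against Fap, which shares its denominator with the former ratio, had log2 ratios of 0.20 to 0.29 in PBS and 1.06 to 2.08 in PDT. Cthrc1 against Postn was -2.75 ± 0.22 in PBS and -2.05 ± 0.15 in PDT, and Cthrc1 against Aspn 0.009 ± 0.16 and 0.78 ± 0.27. Pdpn against Pi16 was 0.71 ± 0.67 in PBS and 2.12 ± 0.35 in PDT. All 10 macrophage markers had higher means in PDT, and their part in these ratios was not tested.

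**Figure D3:**
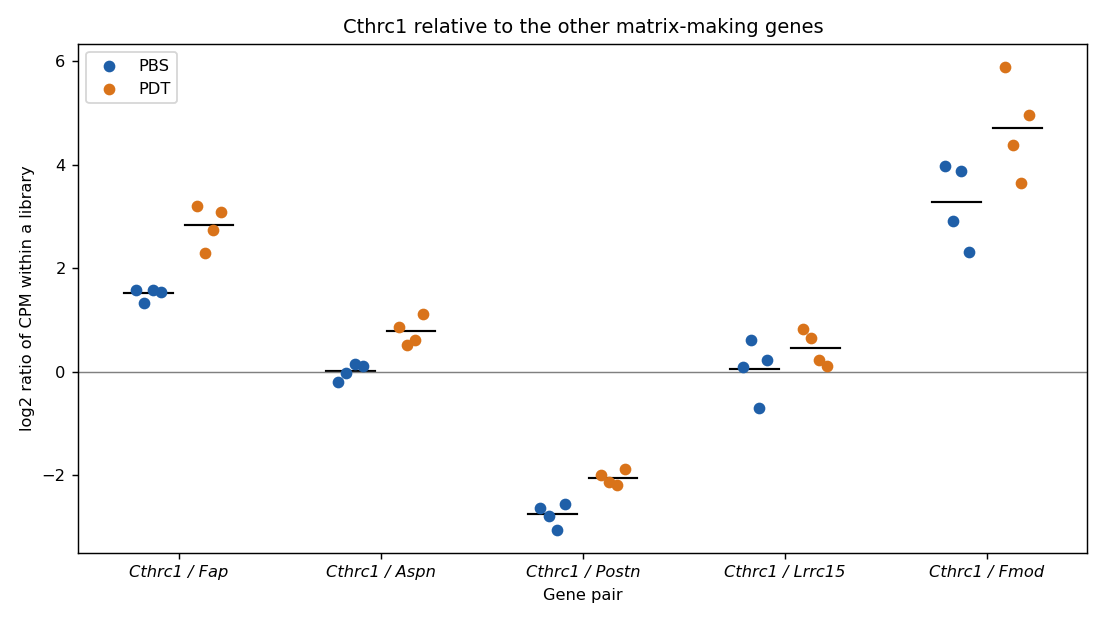
Log2 ratio of Cthrc1 to each of the other matrix-making genes within a library, for PBS (blue) and PDT (orange); points are libraries and black lines are group means. The groups are separate for the ratios to Fap, Aspn and Postn and overlap for Lrrc15 and Fmod. Cthrc1 was chosen after the values were seen, and 6.85% of member pairs were separate against 8.63% of all gene pairs.

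Averaged by role, the gene groups differed between PBS and PDT by less than the spread between libraries. The mean log2 CPM of the 8 detected identity genes was 6.34 ± 0.29 (SD) in PBS and 6.55 ± 0.14 in PDT, that of the universal genes 5.74 ± 0.37 and 5.80 ± 0.24, that of the inflammatory genes 4.27 ± 0.43 and 4.51 ± 0.29, and that of the matrix-making genes 6.55 ± 0.49 and 6.57 ± 0.30. Relative to the identity genes, the difference was -0.59 ± 0.33 in PBS and -0.74 ± 0.16 in PDT for the universal genes, -2.07 ± 0.54 and -2.03 ± 0.22 for the inflammatory genes, and 0.21 ± 0.30 and 0.02 ± 0.23 for the matrix-making genes. Each of these means moved by less than 1 SD of the PBS libraries. The matrix-making mean varied most among the PBS libraries, from 5.93 in PBS 3 to 7.06 in PBS 1, and the universal mean was lowest in PBS 3 (5.18) and PDT 4 (5.46), the 2 libraries with the highest epithelial sums.

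**Figure D4:**
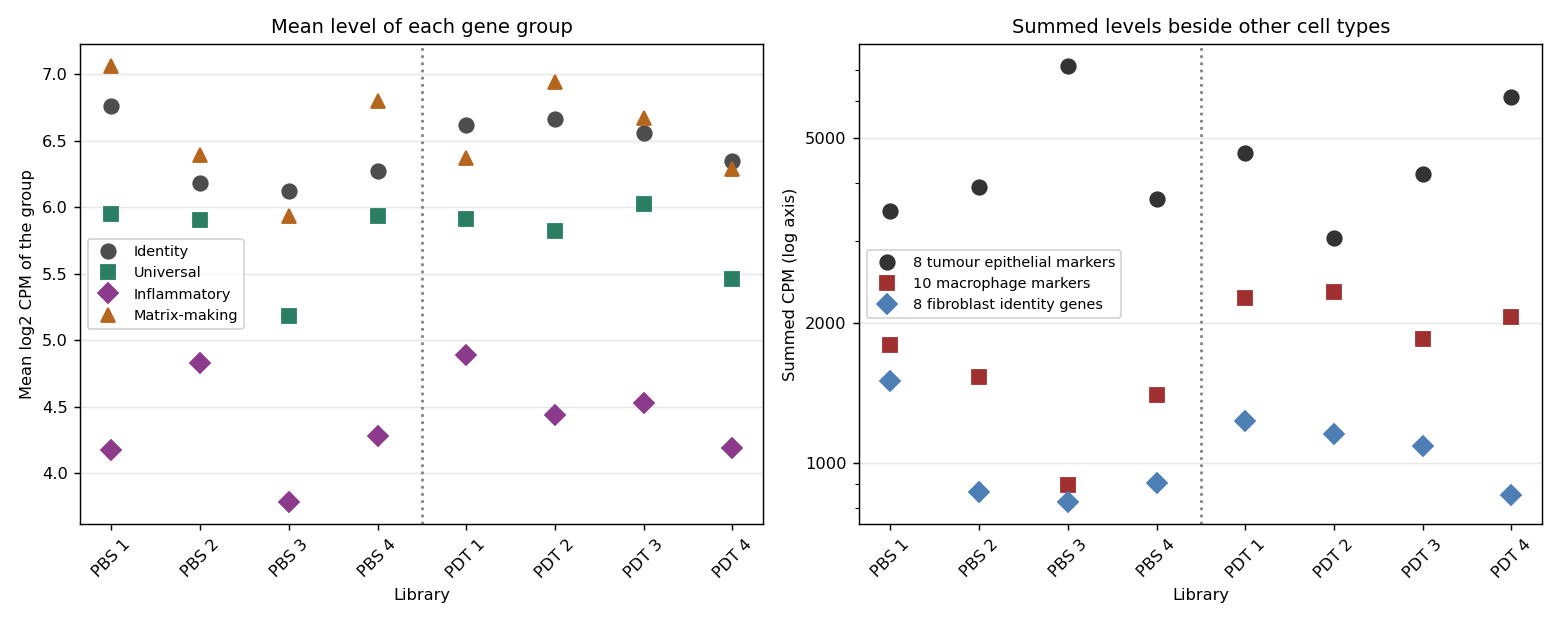
Left, mean log2 CPM of each fibroblast gene group in every library. Right, summed CPM on a log axis of 8 tumour epithelial markers, 10 macrophage markers and 8 identity genes; PBS 3 and PDT 4 have the highest epithelial sums (7160 and 6121 CPM) and the lowest universal means.

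Other genes of the same cell states were counted from lists, which were chosen with earlier results of these data known. Of 12 fibrillar matrix genes 11 had the higher mean in PDT (median log2 fold change 0.30). EdgeR called 0 of them (2 higher and 1 lower at an unadjusted p under 0.05), DESeq2 called 2 and limma-voom 0. Of all genes, 8.63% were higher and 7.87% lower at that unadjusted p. EdgeR called 0.235% of all genes, DESeq2 5.24% and limma-voom 1.01%. Fn1, fibronectin, was the exception in direction. Its 4 PDT libraries (943 to 1366 CPM) lay below its 4 PBS libraries (1419 to 2507 CPM), as was so for 5.12% of all genes. The log2 fold change of Fn1 was -0.75 ± 0.21 (adjusted p = 0.109). Col1a1, the main chain of collagen I, had 0.54 ± 0.18 (adjusted p = 0.165).

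Of 9 myofibroblast and contractile genes, a list that included Tnc, Inhba and Itga11, 7 were higher, with a median of 0.43. EdgeR called 1, where it called 0.235% of all genes. At an unadjusted p under 0.05, 5 were higher and 1 lower, against 8.63% and 7.87% of all genes. DESeq2 and limma-voom called 2 each, where they called 5.24% and 1.01% of all genes. Tpm2, a tropomyosin of smooth muscle and myofibroblasts, rose from 57.7 to 91.7 CPM in PBS to 152 to 343 CPM in PDT, by 1.52 ± 0.26 on the log2 scale (adjusted p = 0.0473), and was highest in PDT 2. PDT 2 also had the highest skeletal muscle sum, 3784 CPM against 169.85 to 827 CPM in the other treated libraries, and muscle expresses Tpm2 as well; without PDT 2 the log2 fold change was 1.24 (adjusted p = 0.0364). The call was lost when PBS 1 (adjusted p = 0.0728), PBS 2 (0.109), PBS 3 (0.118), PDT 1 (0.155), PDT 3 (0.0904) or PDT 4 (0.0711) was left out, with the log2 fold change between 1.41 and 1.67, and with a correction for GC content and gene length (1.39, adjusted p = 0.0845). Myl9, a myosin light chain of contractile fibroblasts and smooth muscle, had 1.03 ± 0.27 (adjusted p = 0.101). Its PDT libraries lay wholly above PBS, as was so for 5% of all genes.

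Of 11 cytokines and other secreted proteins of inflammatory fibroblasts, a list that included Igf1 and complement C3, 7 were higher (median 0.17). EdgeR called 0 (5 higher at an unadjusted p under 0.05), DESeq2 called 3 and limma-voom 1. Of all genes, 8.63% were higher at that unadjusted p, DESeq2 called 5.24% and limma-voom 1.01%. Cxcl12, the chemokine ligand of Cxcr4, and Ccl2, a monocyte attractant, had all PDT libraries above all PBS libraries, where 5% of all genes did. Their log2 fold changes were 0.90 ± 0.20 (adjusted p = 0.08) and 1.09 ± 0.27 (adjusted p = 0.0951). Il6 and Cxcl1, which are often used to define the inflammatory state, did not pass and had negative values, -0.55 ± 0.51 and -0.56 ± 0.54. Both were highest in PBS 3. Il6 was at 8.86 CPM there and at 2.44 to 2.62 CPM in the other PBS libraries. Cxcl1 was at 46.8 CPM there and at 5.50 to 11.3 CPM in the other PBS libraries. Cxcl2 had the largest value of the 11, 2.25 ± 0.95 (adjusted p = 0.264 in edgeR). Among 5 genes of antigen-presenting fibroblasts 1 was higher and 4 lower (median -0.45); edgeR called 0 (1 higher at an unadjusted p under 0.05), DESeq2 called 1 and limma-voom 0. The higher one was Slpi, a secreted protease inhibitor, at 1.02 to 2.81 CPM in PBS and 3.26 to 15.3 CPM in PDT, with a log2 fold change of 2.26 ± 0.48 (adjusted p = 0.0678). H2-Aa, a chain of MHC class II that dendritic cells, B cells and macrophages also express, had -0.55 ± 0.26 (adjusted p = 0.313).

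Lists for the other cell types that a tumour can hold gave 10 of 10 macrophage genes higher (median 0.57), 7 of 7 T cell genes (1.29), 9 of 9 skeletal muscle genes (1.63), 6 of 8 pericyte genes (0.21), 5 of 8 blood endothelial genes (0.32), 4 of 7 adipocyte genes (0.49), 3 of 8 tumour epithelial genes (-0.09), 2 of 4 tendon genes (-0.13), 1 of 5 lymphatic genes (-0.49), 1 of 4 keratinocyte genes (-0.61) and 0 of 2 mesothelial genes (-0.34). Of these genes, DESeq2 called 4 of macrophages and 1 of pericytes, and limma-voom 3 and 1. The 2 methods called 5.24% and 1.01% of all genes. In edgeR 1 gene passed, Cd68 of macrophages, at 52.2 to 78.1 CPM in PBS and 107 to 134 CPM in PDT (0.85 ± 0.15, adjusted p = 0.0497). Leaving out any 1 library ended that call with the log2 fold change at 0.73 to 0.92 (adjusted p from 0.0527 without PBS 4 to 0.163 without PDT 1), as did the GC and length correction (0.66, adjusted p = 0.117). The mesothelial markers Upk3b and Lrrn4 were at 0 in 7 of 8 libraries.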

How the data were processed

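Total RNA of tumour tissue, in 4 PBS and 4 PDT samples, was depleted of ribosomal RNA and made into libraries with a directional kit, per the labels' protocols. The submitters' processing notes name cutadapt 4.6, STAR 2.7.11b and GRCm39; the counter, annotation and strand option were not given in the sources used here. The deposited values are whole-number counts of reads per gene for 57132 genes, 484 of them without a symbol. Of the small nonzero counts in a library, between 77.9% and 83.8% were even numbers, a share not taken over larger counts. Reads of a pair may therefore have been counted separately, and counts of halved size were tried as an alternative.

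Genes passing edgeR's filterByExpr were fitted with TMM scaling and the quasi-likelihood test (edgeR 4.0.16, R 4.3.3), with Benjamini-Hochberg adjustment over 16588 genes and a threshold of 0.05. Of the 33 members, 32 passed the filter. CPM are TMM-scaled, and log2 CPM used a prior count of 2. The biological coefficient of variation was 0.392. DESeq2 1.42.0, limma-voom 3.58.1 with sample weights, other scalings and filters, the replicate block and leave-one-out fits were alternatives. In counts simulated for this comparison over 15968 genes, recovery was 8.06% at a 1.5-fold change, 40% at 2-fold and 81.7% at 4-fold, with 7 of 87 calls false. GC content and exon length came from GENCODE M21 (GRCm38), matched by identifier for 98.1% of tested genes.

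Every member is accounted for. Levels in every library are printed for the 3 members of each role with the smallest p and for any called member. They are also printed for Pdgfra, Pdgfrb, Dcn, Lum, Pi16, Saa3 and Postn. From each pathway list the 2 genes with the smallest p are named. Il6, Cxcl1 and Cxcl2, and the marker sums without Ly6a or Ndufa4l2, were added after their values were seen. The members and lists were chosen with earlier results of these data known. All library pairs differed by far more than sampling noise.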

Additional observations from a re-analysis of the deposited data

Results flagged for a closer look

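In 5 of 64 groups of 4 libraries examined (the 32 detected members in each group), a single library stood far from the other 3 by Dixon's criterion; chance marks about 1 group in 20. PBS 1 was high in 3 of them: Pdgfra was at 48.0 CPM there, with the next PBS library at 30.9; Dcn was at 732.5 CPM, with the next at 436; and Lum was at 311.4 CPM, with the next at 110.0. Fbln2 was high in PBS 4, at 650.9 CPM against 498.4 in the next library. Ogn, which encodes the proteoglycan osteoglycin, was low in PDT 4, at 31.77 CPM against 58.2 in the next.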

How the results depend on the processing

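Over 18 alternatives, 15 of the 32 tested members kept their direction, 10 higher and 5 lower in PDT, and 17 changed sign in at least 1. The replicate block called 182 genes and 0 members. Same-numbered libraries correlated at 0.0385 to 0.069 and none correlated best with its own number. The skeletal muscle sum was highest in replicate 2 and lowest in replicate 4 of both groups. Its gene Ckm had an adjusted p of 0.587 in edgeR without the block and 0.0157 with it. The adipocyte sum was highest in PBS 2 and PDT 3. Whether same-numbered samples belong together was not tested. The count of called genes, 39 as reported, was 69 with upper quartile scaling, 534 with no count filter, 88 with a filter of 1 CPM in 4 samples, 869 with DESeq2, 167 with limma-voom, 67 with halved counts, 25 with GC and length correction, and 12 without PBS 1 and PDT 2; the last 2 were chosen after seeing the data. It ran from 0 to 122 with a library left out: 10 without PBS 1, 4 without PBS 2, 0 without PBS 3, 122 without PBS 4, 0 without PDT 1, 112 without PDT 2, 3 without PDT 3 and 3 without PDT 4. At an unadjusted p under 0.05 in edgeR, 2349 genes were found without PBS 3 and 2162 without PDT 1. With no count filter 4 members were called and with DESeq2 3; all other alternatives called 0. The cause of these shifts was not tested. Signs changed to 0.0005996 for Fbln2 with upper quartile scaling; to 0.23 for Lum, -0.001437 for Medag and 0.047 for Aspn with limma-voom; to 0.15 for Lum, 0.019 for Has2 and 0.023 for Aspn with the replicate block; to 0.17 for Dcn, 0.061 for Lum, -0.0057 for Fbln1, -0.062 for Ly6c1, 0.18 for Has2 and 0.099 for Aspn with GC and length correction; and to 0.11 for Dcn, 0.46 for Lum, -0.0702 for Col14a1, 0.24 for Gas1 and 0.14 for Aspn without PBS 1 and PDT 2. With a library left out, log2 fold changes that changed sign ranged as follows: Dcn -0.25 to 0.14, Lum -0.20 to 0.57, Col14a1 -0.0263 to 0.19, Gas1 -0.17 to 0.15, Aspn -0.26 to 0.30, Has2 -0.16 to 0.16, Pdgfrb -0.11 to 0.0671, Mfap5 -0.13 to 0.26, Fbln1 -0.12 to 0.25, Ogn -0.0133 to 0.51, Ly6c1 -0.0516 to 0.19, Medag -0.11 to 0.24, Postn -0.0346 to 0.28, Cd248 -0.14 to 0.0881, Fbln2 -0.0602 to 0.12, Gpc3 -0.0776 to 0.33, Clec3b -0.14 to 0.56. Depth bears most on Has1, at 22 to 238 reads a library.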
